A study of Homo sapiens with 5 samples.

Results

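Retinoids are the derivatives of vitamin A. A cell oxidizes retinol to retinaldehyde and then to retinoic acid, which cellular binding proteins carry and which retinoic acid receptors (RARs), paired with retinoid X receptors (RXRs), sense on the DNA as ligand-controlled transcription factors. Retinoic acid is known for its part in lung development and in the differentiation of airway epithelium, and cytochrome P450 enzymes of the CYP26 family clear it.

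The genes described here are 9 chosen by symbol, namely the carriers CRABP2 and CRABP1, the receptors RARA, RARB, RARG and RXRA, and the enzymes RDH10, DHRS3 and CYP26B1. Of these 9 genes, 8 were found among the 37181 genes or assembled loci of the deposited expression table, each with 1 entry, and CRABP1 was not analysed here. Their expression was compared between HCC827/GR cells (3 libraries, replicates 1, 2 and 3) and gefitinib-sensitive HCC827 cells, labelled HCC827/GS (2 libraries, replicates 2 and 3). HCC827 is a human lung adenocarcinoma cell line with an exon 19 deletion in EGFR. HCC827/GR is a gefitinib-resistant line raised from it by treatment with a gradient of gefitinib doses over more than 6 months. The deletion itself was not examined here in the libraries of either group. The resistant line is a single derivation, so its differences from HCC827 belong to this derivation and to gefitinib resistance in a way that cannot be told apart. Nothing in the labels says that the libraries came from separate cultures, so the p-values measure only the spread between these libraries.

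Expression was given as FPKM, the fragments per kilobase of transcript, scaled to the mapped fragments of the library, a unit that allows levels of different genes to be set side by side. Read numbers cannot be had from FPKM, so sequencing depth is unknown for all 5 libraries. Across the entries tested, the correlation of log2(FPKM + 1) was 0.913 to 0.927 within a cell line and 0.851 to 0.873 across the lines, with genes as the points, which are not independent. Markers of lung epithelium, of which 7 of 9 had an entry, summed to between 443 and 574 FPKM in HCC827/GR and between 1068 and 1186 FPKM in HCC827. Fibroblast markers (7 of 7 with an entry) summed to between 2.72 and 3.06 FPKM in HCC827/GR and between 3.33 and 3.44 FPKM in HCC827. Leukocyte markers (4 of 5 with an entry) summed to at most 0.378 FPKM in any library. Endothelial markers (3 of 3) summed to at most 0.0333 FPKM in HCC827/GR and to between 3.38 and 4.44 FPKM in HCC827, nearly all of it PECAM1, which has 10 entries and whose highest one, used here, is at 0 in each HCC827/GR library. In bulk RNA, fewer cells of a kind and less RNA per cell cannot be told apart.

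A retinoic acid response element is a direct repeat of short half-sites that an RAR-RXR pair binds, and the repeat spaced by 5 bases, DR5, is the classical one. The promoter of RARB holds the textbook example. It is shown here because RARB and the retinoic acid hydroxylase gene CYP26A1 carry such an element at their starts, while the promoter of CRABP2, the gene with the largest change among the 7 tested, has no repeat in its window. The half-sites searched were AGGTCA, its variant GGGTCA, the form AGTTCA and its variant GGTTCA, on both strands, and a DR1, DR2 or DR5 was any pair of these in the same direction with 1, 2 or 5 bases between them. The sequences are from RefSeq (GRCh38.p14), read 5′ to 3′ along the gene, with half-sites in capitals and with bases that lie in an annotated exon of GENCODE release 29 left out.

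RARB, upstream 250 bases, chr3:25428013-25428262, plus strand: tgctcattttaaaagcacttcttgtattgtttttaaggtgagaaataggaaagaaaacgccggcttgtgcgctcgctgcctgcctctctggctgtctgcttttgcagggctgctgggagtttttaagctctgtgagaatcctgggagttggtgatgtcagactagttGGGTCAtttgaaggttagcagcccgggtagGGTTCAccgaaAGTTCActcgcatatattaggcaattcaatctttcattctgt
CRABP2, 218 bases from 250 to 33 bases before the start, chr1:156705817-156706034, minus strand: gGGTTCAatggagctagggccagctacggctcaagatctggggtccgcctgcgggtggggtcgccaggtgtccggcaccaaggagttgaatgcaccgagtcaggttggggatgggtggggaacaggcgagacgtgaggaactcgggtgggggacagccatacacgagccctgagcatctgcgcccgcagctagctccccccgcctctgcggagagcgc
RARB, the DR5 at chr3:25428210-25428226: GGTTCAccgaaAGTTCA
CYP26A1, the DR5 at chr10:93073803-93073819, read on the strand opposite to the gene: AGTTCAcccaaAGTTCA

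The DR5 of RARB lies 53 to 37 bases before the RefSeq start. That start is 48 bases before the start in GENCODE of ENST00000330688, 1 of the 2 Ensembl transcripts in the RARB entry. In CYP26A1 the DR5 lies 90 to 74 bases before the start. Among 35116 promoter windows, each from 250 bases before to 50 after a start, 31 (0.0883%) held a DR5, 46 (0.131%) a DR1 and 14 (0.0399%) a DR2, while a single half-site was found in 13548 (38.6%). No DR1, DR2 or DR5 was found in the windows of CRABP2, RARA, RARG, RXRA, DHRS3 or CYP26B1, which says only that these letters are not in those windows. RDH10 was not searched.

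In HCC827/GR cells the transcripts of CRABP2 and RARG were lower, and RARA, RXRA and the enzymes of the set did not pass the test, while RARB was too low to be tested. With limma's moderated test (two-sided) on log2(FPKM + 1), 7 of the 8 genes reached the required mean of 0.5 FPKM over the 5 libraries and were tested, and the p-values were adjusted after Benjamini-Hochberg over all 16189 entries tested. An adjusted p under 0.05 was reached by 2 of the 7, both lower in HCC827/GR, where 5.71% of all entries tested were called lower and 5.26% higher. The same 2 genes passed the fold threshold of 0.5 with an unadjusted p under 0.05, as 3.97% of all entries did, and none passed the fold threshold of 2 on the higher side with that p, as 2.96% did. The median log2 fold change of the 7 genes was -0.46, and that of all entries tested was 0.00.

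CRABP2 encodes cellular retinoic acid binding protein 2, which carries retinoic acid to the nucleus and hands it to RARs. The gene lies at chr1:156699606-156705816 on the minus strand (GENCODE release 29, GRCh38), and its entry joins 6 transcripts, 4 of them from Ensembl and all of those CRABP2 transcripts. Its level was 53.6 and 58.4 FPKM in HCC827 replicates 2 and 3. In HCC827/GR it was 6.87, 5.85 and 4.98 FPKM in replicates 1, 2 and 3. All 3 resistant libraries were thus far below both parental ones, and the group means were 5.90 ± 0.944 FPKM (SD, n = 3) and 56.0 ± 3.39 FPKM (SD, n = 2), a 9.48-fold lower mean in HCC827/GR. The log2 fold change was -3.05 (standard error, SE, of 0.146, limma adjusted p = 0.00234), which ranked 30 by size among the 643 entries called lower by fold change and p. The study itself listed CRABP2 among its most changed genes from this experiment, so the test is not independent evidence for it.

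The fall moved CRABP2 from the top of the expressed genes toward the middle. In HCC827 its level exceeded that of 98.0% to 98.1% of the entries tested in the same library, and in HCC827/GR that of 66.4% to 74.6%. When single libraries were dropped, CRABP2 stayed at log2 fold changes between -3.15 and -2.95 with adjusted p between 0.0178 and 0.0293. A fit with a library-size covariate in the manner of Ballgown, which leaves 2 residual degrees of freedom, gave -2.87 and an adjusted p of 0.115. It is not the study's own Ballgown fit, by which CRABP2 was listed as lower in the resistant cells.

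**Figure D1:**
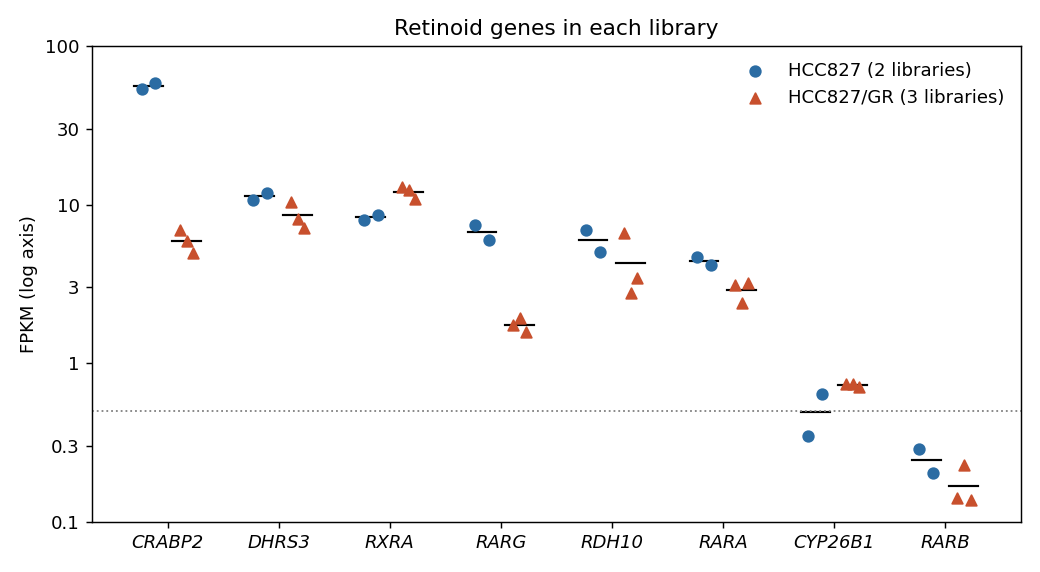
FPKM (log axis) of the 8 retinoid genes in each library, with HCC827 as circles (2 libraries), HCC827/GR as triangles (3 libraries), black lines at the group means and a dotted line at 0.5 FPKM. CRABP2 drops from above 50 FPKM to between 4.98 and 6.87 FPKM and RARG from above 5 FPKM to below 2 FPKM, while the points of RDH10 and RARB overlap between the cells.

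Retinoic acid receptors bind the ligand that CRABP2 delivers. RARG, the isotype best known from skin and other stratified epithelia, lies at chr12:53210567-53232980 on the minus strand, and its entry joins 23 transcripts, of which 18 are Ensembl transcripts of RARG. Its level was 7.41 and 5.94 FPKM in HCC827 replicates 2 and 3. In HCC827/GR replicates 1, 2 and 3 it was 1.74, 1.92 and 1.56 FPKM. The groups did not overlap, with means of 1.74 ± 0.182 FPKM (SD, n = 3) and 6.68 ± 1.04 FPKM (SD, n = 2), or 3.84-fold lower in HCC827/GR. The log2 fold change was -1.48 (SE 0.129, adjusted p = 0.00784, limma), and it stayed between -1.62 and -1.34 with adjusted p between 0.031 and 0.0462 when single libraries were left out. With the library-size covariate the adjusted p was 0.209 at a log2 fold change of -1.43. The epithelial markers were lower beside CRABP2 and RARG, with an adjusted p under 0.05 for 5 of 6 tested and log2 fold changes from -3.04 to -0.75, and their part in the results was not tested.

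RARA encodes the isotype that most tissues express. It had 4.67 and 4.14 FPKM in HCC827 and 3.10, 2.41 and 3.18 FPKM in HCC827/GR. The resistant libraries were all below the parental ones, but the log2 fold change of -0.48 (SE 0.132) had an adjusted p of 0.0963 from limma. RARB, the isotype whose transcription retinoic acid itself induces through the DR5 printed above and which is often silenced in lung cancers, was near the lower end of the table. It had 0.287 and 0.203 FPKM in HCC827 and 0.142, 0.227 and 0.136 FPKM in HCC827/GR, values that overlap. RARB did not reach the mean of 0.5 FPKM and was not tested, and in a fit with no filter on low values its log2 fold change was -0.09 (adjusted p = 0.547, limma).

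RXRA encodes the common partner of RARs and of several other nuclear receptors, and it was the member with the largest positive change. Its level was 8.03 and 8.54 FPKM in HCC827 and 12.9, 12.3 and 10.9 FPKM in HCC827/GR. All resistant libraries lay above the parental ones, with a ratio of the means of 1.45. The log2 fold change of 0.49 (SE 0.108) missed the threshold with an adjusted p of 0.0569 from limma, and over all alternatives this adjusted p lay between 0.054 and 0.218. The RXRA entry joins 17 transcripts, of which only 2 are from Ensembl and the others were assembled by the authors.

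The shares of the RAR isotypes were set side by side, and none of their differences passed the test. RARA, RARB and RARG summed to 12.4 and 10.3 FPKM in HCC827 and to 4.98, 4.56 and 4.87 FPKM in HCC827/GR. RARG made up 59.9% and 57.8% of this sum in HCC827 and 35.0%, 42.1% and 32.0% in HCC827/GR, a mean difference of -22.5 percentage points. RARA took 37.8% and 40.3% in HCC827 and 62.2%, 52.9% and 65.2% in HCC827/GR, a mean difference of 21.1 percentage points. RARG was thus the most abundant isotype in both parental libraries and RARA in the 3 resistant ones. For both shares an exact permutation test over the libraries (two-sided) gave p = 0.1, the smallest that 3 libraries against 2 allow, and 0.167 after Benjamini-Hochberg adjustment over the 5 ratios and shares examined. The share of RARB was 2.32% and 1.98% in HCC827 and 2.84%, 4.98% and 2.79% in HCC827/GR (exact permutation test, p = 0.3, adjusted p = 0.375).

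**Figure D2:**
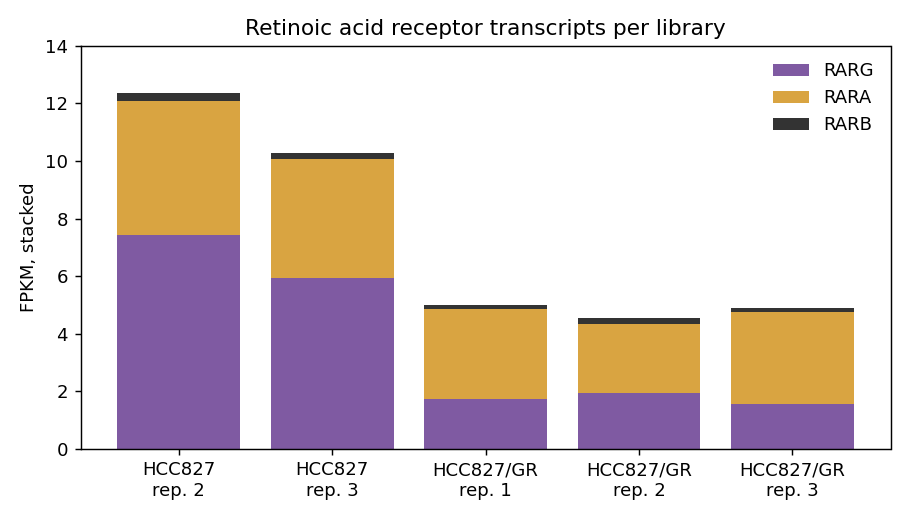
FPKM of RARG, RARA and RARB stacked for each library, with the 2 HCC827 libraries on the left and the 3 HCC827/GR libraries on the right. The bars reach 12.4 and 10.3 FPKM in HCC827 and between 4.56 and 4.98 FPKM in HCC827/GR, and the RARG part is the largest in HCC827 and the RARA part in HCC827/GR.

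The enzymes of the set varied more between libraries or changed less. RDH10, which oxidizes retinol to retinaldehyde, had 6.88 and 5.02 FPKM in HCC827 and 6.61, 2.77 and 3.43 FPKM in HCC827/GR. HCC827/GR replicate 1 fell among the parental libraries, and the log2 fold change of -0.46 (SE 0.343) had an adjusted p of 0.459 from limma. Without HCC827/GR replicate 1 it was -0.75, without HCC827/GR replicate 2 it was -0.25, and with the library-size covariate it was -0.07. DHRS3 runs the opposite reaction, reducing retinaldehyde to retinol. It had 10.7 and 11.9 FPKM in HCC827 and 10.4, 8.11 and 7.14 FPKM in HCC827/GR, with no overlap but an adjusted p of 0.24 at a log2 fold change of -0.38 (SE 0.171, limma), and -0.16 with the library-size covariate. The log2 ratio of RDH10 to DHRS3 within a library, each with 1 FPKM added, was -0.57 and -1.10 in HCC827 and -0.58, -1.27 and -0.88 in HCC827/GR. These ratios overlapped (exact permutation test, p = 0.8), and the sign of their mean difference of -0.07 depended on single libraries.

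CYP26B1, a hydroxylase that inactivates retinoic acid, was expressed at a low level. It had 0.345 and 0.640 FPKM in HCC827 and 0.734, 0.733 and 0.707 FPKM in HCC827/GR. The resistant libraries lay closely together and above the parental ones, which differed from each other, and the log2 fold change of 0.22 (SE 0.148) had an adjusted p of 0.416 from limma. CYP26B1 passed the filter on low values with a mean of 0.632 FPKM through its HCC827/GR libraries, since its mean in HCC827 was 0.492 FPKM. In all, the libraries of the cells were fully separated for 4 of the 7 genes tested with lower values in HCC827/GR and for 2 with higher values, where this held for 23.4% and 22.8% of all entries tested.

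The order of the levels changed between the cells. In HCC827 it ran from CRABP2 through DHRS3, RXRA, RARG, RDH10, RARA and CYP26B1 to RARB, and the ranges of the libraries overlapped only between the neighbours RARG and RDH10. In HCC827/GR it ran from RXRA through DHRS3, CRABP2, RDH10, RARA, RARG and CYP26B1 to RARB, with overlapping ranges between CRABP2 and RDH10 and between RDH10 and RARA. CRABP2 thus moved from rank 1 to rank 3 and RARG from rank 4 to rank 6.

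FABP5 encodes a fatty acid binding protein that can carry retinoic acid to the receptor PPARD instead, and it was set beside CRABP2 for that reason. FABP5 had 7.05 and 12.8 FPKM in HCC827 and 7.15, 6.76 and 9.60 FPKM in HCC827/GR, and FABP5 has processed pseudogenes with which its reads could be shared. The log2 ratio of CRABP2 to FABP5, each with 1 FPKM added, was 2.76 and 2.10 in HCC827 and -0.05, -0.18 and -0.83 in HCC827/GR. CRABP2 therefore exceeded FABP5 in both parental libraries and in none of the resistant ones, with a mean difference of the log2 ratio of -2.78 (p = 0.1 in the same exact permutation test, and 0.167 after adjustment). FABP5 itself had a log2 fold change of -0.27 (SE 0.282, adjusted p = 0.604, limma), and PPARD had -0.18 (SE 0.109, adjusted p = 0.356).

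The other genes of the pathway were taken from 6 lists with 118 genes in all. Each list holds few tested genes, so its counts below are no result about the list. They stand beside 5.26% of all entries tested called higher and 5.71% called lower. Of the 118 genes, 70 reached the mean of 0.5 FPKM. An adjusted p under 0.05 from limma was reached by 7 with higher and 6 with lower expression in HCC827/GR, beside 5.26% and 5.71% of all entries tested, and the median log2 fold change of the 70 was -0.02. With single libraries left out, these counts ran from 2 to 6 higher and from 1 to 4 lower.

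**Figure D3:**
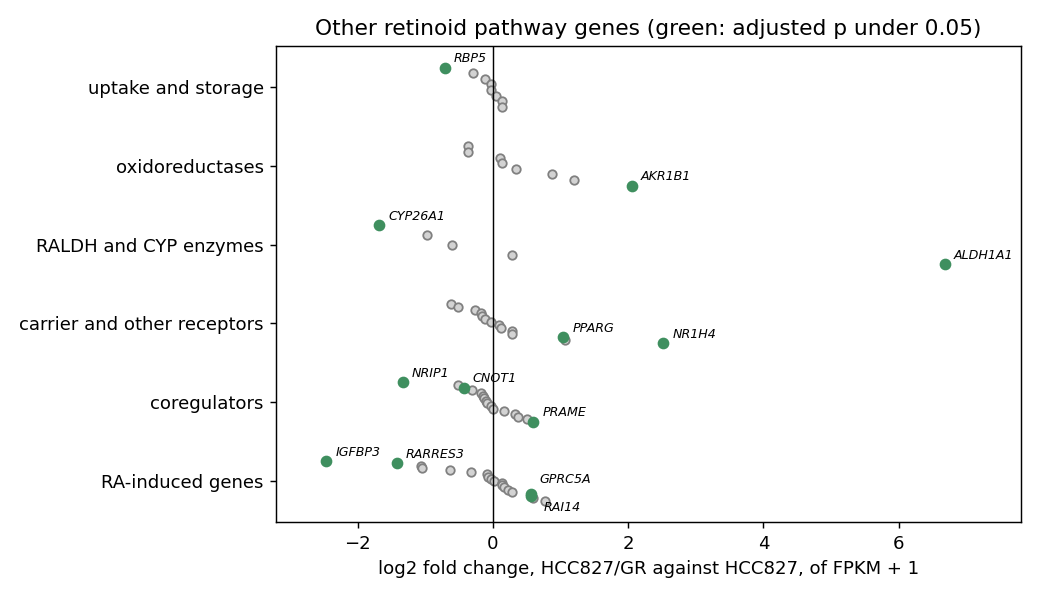
Log2 fold change (HCC827/GR against HCC827, on FPKM + 1) of the 70 other pathway genes tested, in 6 rows by role, where RALDH stands for retinaldehyde dehydrogenases, CYP for cytochrome P450 enzymes and RA for retinoic acid. Green points have an adjusted p under 0.05 and grey points do not, and ALDH1A1 at 6.68 lies far to the right of all others while IGFBP3 at -2.46 lies farthest to the left.

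The enzymes that make and remove retinoic acid held changes in both directions. Among 5 tested genes of this list, ALDH1A1 rose and CYP26A1 fell. ALDH1A1, a retinaldehyde dehydrogenase that makes retinoic acid and a common stem cell marker, had 0.851 and 0.381 FPKM in HCC827 and 186, 301 and 76.4 FPKM in HCC827/GR (log2 fold change 6.68, SE 0.605, adjusted p = 0.00862, limma). The resistant libraries differed among themselves but each was far above the parental ones, and without HCC827 replicate 2 or 3 the adjusted p was 0.0624 or 0.0627. ALDH1A3, a second enzyme of this kind that was singled out after its values were seen, had 13.5 and 16.3 FPKM in HCC827 and 8.76, 4.80 and 8.08 FPKM in HCC827/GR (log2 fold change -0.98, SE 0.264, adjusted p = 0.0900). CYP26A1, a hydroxylase that clears retinoic acid and a sensitive target of it, had 4.68 and 4.39 FPKM in HCC827 and 0.971, 0.808 and 0.451 FPKM in HCC827/GR. Its groups did not overlap, and its log2 fold change was -1.68 (SE 0.163, adjusted p = 0.00996, limma), with adjusted p of 0.0699 and 0.0606 without HCC827 replicate 2 and 3. CYP26A1, not the member CYP26B1, was thus the more abundant CYP26 transcript in both HCC827 libraries.

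Of the retinol and retinal oxidoreductases, 1 of 8 tested genes rose by adjusted p and none fell. The gene was AKR1B1, an aldo-keto reductase that can reduce retinaldehyde, with 32.2 and 32.3 FPKM in HCC827 and 159, 133 and 119 FPKM in HCC827/GR (log2 fold change 2.05, SE 0.148, adjusted p = 0.00521, limma). AKR1B1 is also among the genes that the study chose from these libraries. ADH1C of the same list had 1.14 and 1.00 FPKM in HCC827 and 0.138, 0.0892 and 0.116 FPKM in HCC827/GR. Its mean over the 5 libraries was under 0.5 FPKM, so it was not tested. Of the other untested genes of the list, RDH12 and SDR16C5 were lower and DHRS9 higher in HCC827/GR without overlap. Of the genes for uptake, storage and carotenoid cleavage, 1 of 8 fell, namely the retinol binding protein gene RBP5 with a log2 fold change of -0.71 (SE 0.108, adjusted p = 0.0248). The 8 include RPE65, with between 59.8 and 86.8 FPKM in the 5 libraries, and which transcripts its entry joins was not examined. STRA6, the membrane receptor for retinol uptake, had between 1.13 and 1.35 FPKM in the 5 libraries.

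Of the carrier and the receptors that pair with RXRs or compete for their sites, 2 of 14 tested genes rose and none fell. The log2 fold changes of the 14 were positive for 7 and negative for 7, with a median of 0.03. NR1H4, the bile acid receptor, had 0.255 and 0.0972 FPKM in HCC827 and 5.84, 7.97 and 3.96 FPKM in HCC827/GR (log2 fold change 2.52, SE 0.273, adjusted p = 0.0116, limma). NR1H4 passed the filter on low values only through HCC827/GR, since its mean in HCC827 was 0.176 FPKM, so that its call and its place in the count are no support for a change of the list. Without HCC827 replicate 2, HCC827 replicate 3 or HCC827/GR replicate 1, the adjusted p of NR1H4 was 0.0775, 0.0781 or 0.0548. PPARG, the receptor that drives fat cell differentiation, had 3.47 and 3.58 FPKM in HCC827 and 8.09, 8.32 and 8.48 FPKM in HCC827/GR (log2 fold change 1.04, SE 0.0831, adjusted p = 0.00628), and it too was listed by the study. Both genes encode receptors that bind DNA with RXRs. RXRB, another RXR gene, had a log2 fold change of 0.29 (SE 0.161, adjusted p = 0.321).

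Among 16 tested coactivator and corepressor genes, 1 rose and 2 fell. NRIP1, a corepressor that retinoic acid induces, had 7.20 and 5.65 FPKM in HCC827 and 1.68, 1.97 and 2.19 FPKM in HCC827/GR (log2 fold change -1.33, SE 0.142, adjusted p = 0.0115, limma). Its adjusted p was 0.0625 without HCC827 replicate 2 and 0.0508 without HCC827/GR replicate 1. PRAME, a tumor antigen that represses RAR signaling, rose by less than the fold change threshold (log2 fold change 0.60, SE 0.121, adjusted p = 0.0471), and CNOT1 fell by 0.43 on the log2 scale (SE 0.0824, adjusted p = 0.0413). Both lost the call whenever a library was left out, with adjusted p between 0.0782 and 0.166 for PRAME and between 0.0971 and 0.135 for CNOT1.

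Of the genes listed as textbook retinoic acid-induced, 27 had an entry and 19 were tested. By adjusted p, 2 rose and 2 fell, with a median log2 fold change of 0.01. By fold change and unadjusted p, 0 were higher and 3 lower (IGFBP3, RARRES3 and FOXA1), beside 2.96% and 3.97% of all entries tested. FOXA1 had a log2 fold change of -1.05 (SE 0.260, adjusted p = 0.0740, limma). Among the untested genes, CD38 and HSD17B2 were lower without overlap, and RET and PCK1 higher, all under 1 FPKM. CYP26A1 and NRIP1, named above as a target of retinoic acid and as induced by it, fell but were counted in other lists. RARB, also induced by it, belongs to the 9 genes and was not tested. These counts therefore depend on how genes were assigned to lists. IGFBP3, a binding protein for insulin-like growth factors, had 38.7 and 42.0 FPKM in HCC827 and 8.17, 4.52 and 7.32 FPKM in HCC827/GR (log2 fold change -2.46, SE 0.245, adjusted p = 0.0102, limma). RARRES3, a retinoic acid receptor responder and phospholipase, had 7.39 and 6.72 FPKM in HCC827 and 2.77, 1.91 and 1.48 FPKM in HCC827/GR (log2 fold change -1.42, SE 0.201, adjusted p = 0.0206). GPRC5A and RAI14 rose, with log2 fold changes of 0.56 (SE 0.0889, adjusted p = 0.0272) and 0.57 (SE 0.108, adjusted p = 0.0398). IGFBP3 lost the call without HCC827 replicate 2 or 3 (adjusted p = 0.0703 and 0.0685), and RARRES3 lost it without HCC827 replicate 2 or 3 or HCC827/GR replicate 2 (0.119, 0.0988 and 0.0731). RBP5, GPRC5A and RAI14 lost it whenever any library was left out, with adjusted p between 0.0519 and 0.115.

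**Figure D4:**
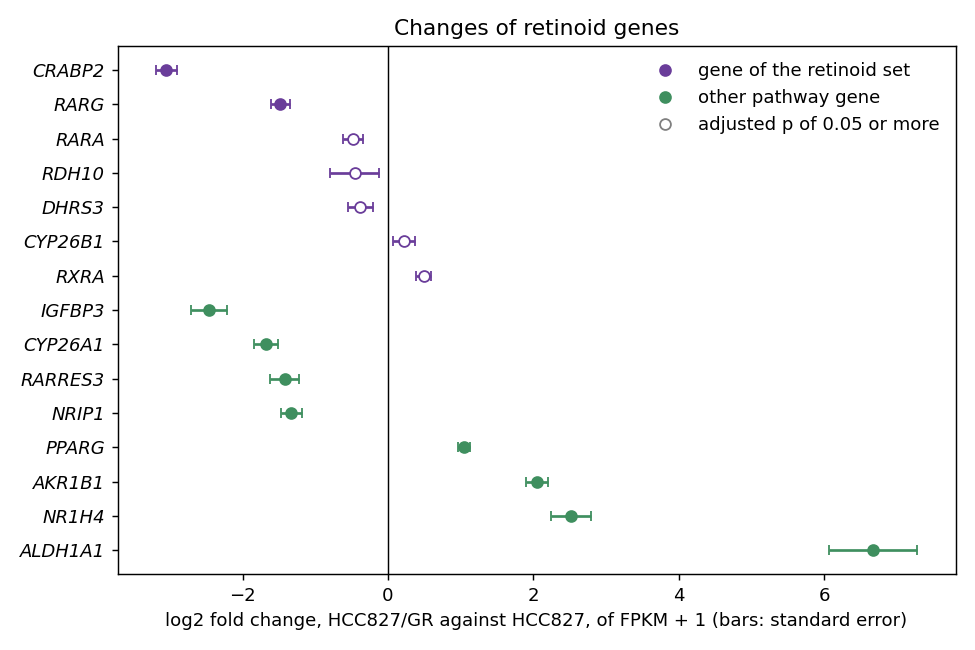
Log2 fold change (HCC827/GR against HCC827, on FPKM + 1) with standard error bars for the 7 tested genes of the retinoid set and for the 8 other pathway genes with an adjusted p under 0.05 and a fold above 2 or below 0.5. Filled points have an adjusted p under 0.05, and CRABP2 at -3.05 and RARG at -1.48 are the only filled points of the set.

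The DR5 element gave a grouping defined by sequence, but the filter on expression decided which of its genes were tested. CYP26A1 was among the genes already called above, and the DR5 genes were named after their values were seen. The counts are therefore no independent support. BATF2, tested but not called, passed the filter mainly through HCC827 (0.920 and 1.06 FPKM), with 0.539, 0.227 and 0.0861 FPKM in HCC827/GR. The 31 promoter windows with a DR5 belong to 29 genes, of which 15 had an entry and 6 were tested. Of these 6, 3 fell and none rose by adjusted p from limma, beside 5.71% of all entries tested that were called lower. They were CYP26A1, TRIM31 with a log2 fold change of -0.97 (SE 0.108, adjusted p = 0.012) and PHF8 with -0.75 (SE 0.116, adjusted p = 0.0256). TRIM31, an E3 ubiquitin ligase gene, lost the call without HCC827 replicate 2 (0.0599) or HCC827/GR replicate 1 (0.0513). PHF8, a histone demethylase gene, lost it without any library but HCC827/GR replicate 2, with adjusted p from 0.0593 to 0.118. RARB belongs to the 9 with an entry that were not tested.

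Gene annotations in the deposited table were counted as well. Of 45 genes that it places in retinol metabolism (KEGG), 18 were tested, and 1 rose and 2 fell by adjusted p, with a median log2 fold change of -0.22. Of 12 genes annotated to retinoic acid binding (GO), 7 were tested, and CRABP2 and CYP26A1 fell while none rose. Of 12 annotated to the retinoic acid metabolic process, 6 were tested, and 2 fell and none rose, with a median of -0.47. Of 60 genes annotated to the cellular response to retinoic acid, 36 were tested, with 1 that rose, 5 that fell and a median of -0.05. The response to retinoic acid, a separate term, had 3 that rose and 2 that fell among 26 tested of 35 genes, and a median of 0.12. Of 13 genes of retinoic acid receptor signaling, 9 were tested, and RARG fell and none rose, with a median of 0.09. Over all entries tested, 5.26% were called higher and 5.71% lower. These annotations hold several of the 9 genes and overlap each other.

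The entries whose values over the 5 libraries ran most like those of CRABP2 and RARG were found by the root mean square difference of centred log2(FPKM + 1). For CRABP2 the nearest was EFEMP1, an extracellular matrix glycoprotein gene, at a difference of 0.136, with 17.2 and 21.7 FPKM in HCC827 and between 1.38 and 1.80 FPKM in HCC827/GR. TRIM55 at 0.155 and EGFR-AS1 at 0.167 followed, and EGFR-AS1 lies antisense to EGFR, from whose reads it cannot be told apart where strand was not used. For RARG the nearest was KRT19, a keratin of simple epithelia, at 0.042, with 285 and 230 FPKM in HCC827 and between 82.5 and 98.6 FPKM in HCC827/GR. EPB41L4B at 0.0444 and STS at 0.0462 came next. The likeness is over only 5 libraries in 2 groups, so any gene with a similar difference between the cells scores as near.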

How the data were processed

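RNA sequencing libraries of HCC827/GR (3) and HCC827 (2) cells were analysed. According to the study's methods, the authors trimmed reads with Cutadapt, checked them with FastQC, mapped them with Bowtie2 and TopHat2, and assembled and quantified transcripts with StringTie and Ballgown; the deposited table holds their FPKM values. The submitters' processing notes name hg18, versions are not given in the sources used here, and positions were instead taken from GENCODE release 29 and RefSeq (both GRCh38) by Ensembl transcript identifier or symbol. The read layout and the library kit are described differently in the labels (small RNA, single-end) and in the methods (RNA depleted of ribosomal RNA, paired-end), and this was not settled here. A further FPKM column (1), named GS_1 like a first HCC827/GS replicate, matched no sample and was not used.

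For each symbol the entry with the highest mean FPKM over the 5 libraries was taken. Which transcripts an entry joins was examined only for the 9 genes. The 16189 entries whose mean reached 0.5 FPKM were fitted on log2(FPKM + 1) with limma 3.58.1 (R 4.3.3), using a mean-variance trend; fold changes on this scale understate changes of low genes. No value was rescaled. Ratios and shares within a library were compared with an exact permutation test. The fit was run on simulated data with 200 of 16189 entries changed. By adjusted p, limma called between 41 and 47 of the 50 entries at each log2 change (1, 1.5, 2 and 3), and 8 unchanged entries. The simulated noise was independent between libraries, with a spread set by the mean level alone. It therefore cannot show how well the fit does on these libraries. Python 3.11.15, pandas 2.3.3, numpy 2.4.6, scipy 1.17.1 and matplotlib 3.10.9 were used for the other steps.

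The 9 genes, the pathway and marker lists and the tests were chosen with earlier results of these data known. Named were the 9 genes, FABP5 and the 3 nearest profiles of each called gene. Pathway genes with an adjusted p under 0.05 and a fold above 2 or below 0.5 were also named. The 5 pathway genes called at a smaller fold change, STRA6, PPARD, RXRB, ALDH1A3 and the DR5 genes were named after their values were seen. So were FOXA1, CD38, HSD17B2, RET, PCK1, ADH1C, RDH12, SDR16C5, DHRS9 and RPE65. The 2304 symbols with several entries were also summed. Other alternatives were a pseudocount of 0.1, other filters, median-ratio and quantile scaling, no trend, a library-size covariate, a replicate block and leaving out each library. The fold change from the ratio of mean FPKM was added after the data were seen.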

Additional observations from a re-analysis of the deposited data

How the results depend on the processing

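The 7 tested genes kept their direction in all 104 values under the alternatives. In 4 of these values a call by adjusted p was lost. With the library-size covariate these were CRABP2 (-2.87, adjusted p = 0.115) and RARG (-1.43, adjusted p = 0.209). With the replicate block they were CRABP2 (-3.15) and RARG (-1.48), with a limma adjusted p of 0.124 for both. The other genes of the set had no call to lose. The ratio of the mean FPKM has no test of its own and was given the adjusted p of the main fit, so it could change only the direction. The block used the replicate numbers, and whether equal numbers in HCC827 and HCC827/GR mark a shared batch is not known here. Replicate 1 was present only in HCC827/GR, so the block took that library out of the comparison. Its log2 fold changes therefore equal those without HCC827/GR replicate 1 (-3.15 for CRABP2 and -1.48 for RARG), and the 104 values count both. Deviations from the group means correlated at 0.0328 for replicates 2 and at 0.0147 for replicates 3. The deviations of the 2 HCC827 libraries mirror each other, so these correlations cannot show whether the libraries were paired. With this replicate block, limma called 0 entries higher and 0 lower by adjusted p, against 851 and 924 without it, and 1676 and 1869 at an unadjusted p under 0.05; it called 0 of the 7 retinoid genes and 0 of the 70 other pathway genes. The block leaves 1 residual degree of freedom and the covariate 2, which is part of their construction. The covariate left 6 entries higher and 9 lower by adjusted p (1471 and 1312 at an unadjusted p under 0.05), 0 of the 7 genes (1 higher and 2 lower unadjusted) and 0 other pathway genes (6 and 7 unadjusted).

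With no filter on low values, 504 entries were called higher and 757 lower, against 851 and 924 with the filter. Of the other pathway genes, 4 were then called higher and 7 lower, against 7 and 6 with the filter. By fold change and unadjusted p, 480 entries were higher and 643 lower; a pseudocount of 0.1 gave 860 and 1024, and the ratio of the mean FPKM gave 919 and 1201. With single libraries left out, the log2 fold change ran from -0.55 to -0.38 for RARA, 0.44 to 0.55 for RXRA, -0.75 to -0.25 for RDH10, -0.51 to -0.27 for DHRS3 and 0.07 to 0.36 for CYP26B1. Counts by adjusted p then ran from 202 to 485 higher and 287 to 477 lower for all entries, from 2 to 6 higher and 1 to 4 lower for the other pathway genes, and stayed at 2 lower for the retinoid genes. The difference in the RDH10 to DHRS3 log2 ratio, -0.0743, changed sign without HCC827 replicate 2 (0.190) and without HCC827/GR replicate 2 (0.107), and ran between -0.339 and 0.190 over these. FABP5 changed sign without HCC827 replicate 3, and ran from -0.66 to 0.12 over the single libraries left out. The cause of these changes was not tested. Depth is unknown, so what it limits could not be given.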
